A study of Mus musculus with 6 samples.

Results

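The genes described here encode enzymes of cholesterol and fatty acid synthesis together with the SREBP system that regulates them. The list names 31 genes that were found, by gene identifier, among the 17068 genes left in the deposited count table by the authors' filter on low counts. Their levels were measured by bulk RNA-Seq of the E12.5 lateral cortex in 6 female c57/bl6 embryos. The 4 controls were Cre-negative littermates; by their labels, controls 1, 2 and 4 were Foxp1 fl/+ and control 3 was Foxp1 fl/fl. The 2 embryos labelled Foxp1cKO were Foxp1 fl/fl;Emx1Cre, in which Emx1-driven Cre acts in progenitors of the dorsal telencephalon and their descendants, whereas vessels, blood and microglia lie outside that lineage. All 6 embryos thus carried at least 1 floxed allele, and no library came from a mouse without one.

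Cholesterol is made from acetyl-CoA through mevalonate and isoprenoid intermediates, which are joined into squalene, cyclized, and then modified stepwise into cholesterol. The transcription factors encoded by Srebf1 and Srebf2 are held in the endoplasmic reticulum by Scap and the Insig proteins while sterol is plentiful, and are released to the nucleus to switch on the synthesis genes when sterol is scarce. In the developing brain, dividing radial glia and growing neurons need sterol and fatty acids for new membrane, and several of the enzymes use molecular oxygen as a substrate.

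Library totals ran from 50076008 to 78346979 counted reads, and levels are given as CPM, counts per 1000000 reads of a library size scaled with edgeR's TMM normalization. Foxp1, the targeted gene, had 59.7, 60.8, 71.2 and 79.1 CPM in controls 1 to 4, and 83.2 and 76.8 CPM in Foxp1cKO-labelled libraries 1 and 2. It was therefore not lower in the latter (log2 fold change 0.24 with a standard error, SE, of 0.129, and an edgeR adjusted p of 0.468). Whole-gene counts cannot single out the floxed exons, and every direction below rests on the labels. Markers of radial glia and neurons were abundant. Over the 6 libraries, 7 radial glia genes summed to 2087 to 2511 CPM and 7 neuron genes to 2578 to 4569 CPM. These sums do not by themselves tell cortex from other neural tissue, and 7 ventral or interneuron markers summed to 231 to 811 CPM. Controls 3 and 4 marked the upper and lower ends of the neuron sum. In bulk tissue, fewer cells of a type and less RNA per cell cannot be told apart.

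The 11 enzymes that carry farnesyl groups through squalene to cholesterol were all higher in the Foxp1cKO-labelled libraries, by log2 fold changes of 0.023 to 0.47 with a median of 0.23. Alongside them stood Hmgcs1 at the head of the mevalonate pathway, Srebf2 and Insig1 of the regulatory system, and the desaturase gene Scd1. No gene of the 31 passed an adjusted p-value of 0.05 in edgeR (quasi-likelihood test of group alone, with p-values adjusted over all genes by Benjamini-Hochberg), a threshold that 0.152% of all genes passed. At an unadjusted p-value under 0.05 there were 10 of the 31 genes (32.3%), all of them higher, against 13.0% of all genes, 6.53% higher and 6.5% lower. DESeq2, likewise fitted with group alone, called 6 of the 31, all higher, against 3.36% of the genes it tested and 2.06% called higher. Leaving out control 4 put 12 of the 31 at an unadjusted 0.05, against 19.1% of all genes, and leaving out control 3 put 10 there, against 17.6%. limma on the deposited VST values called 0 and placed 11 of them under an unadjusted 0.05. Across the list, 21 genes were higher and 10 lower with a median log2 fold change of 0.12, whereas 49.3% of all genes were higher and their median was -0.0044. In 12 genes both Foxp1cKO-labelled libraries exceeded all 4 controls, against 11.5% of all genes, and in 1 gene both lay below all controls, against 13.1%.

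**Figure D1:**
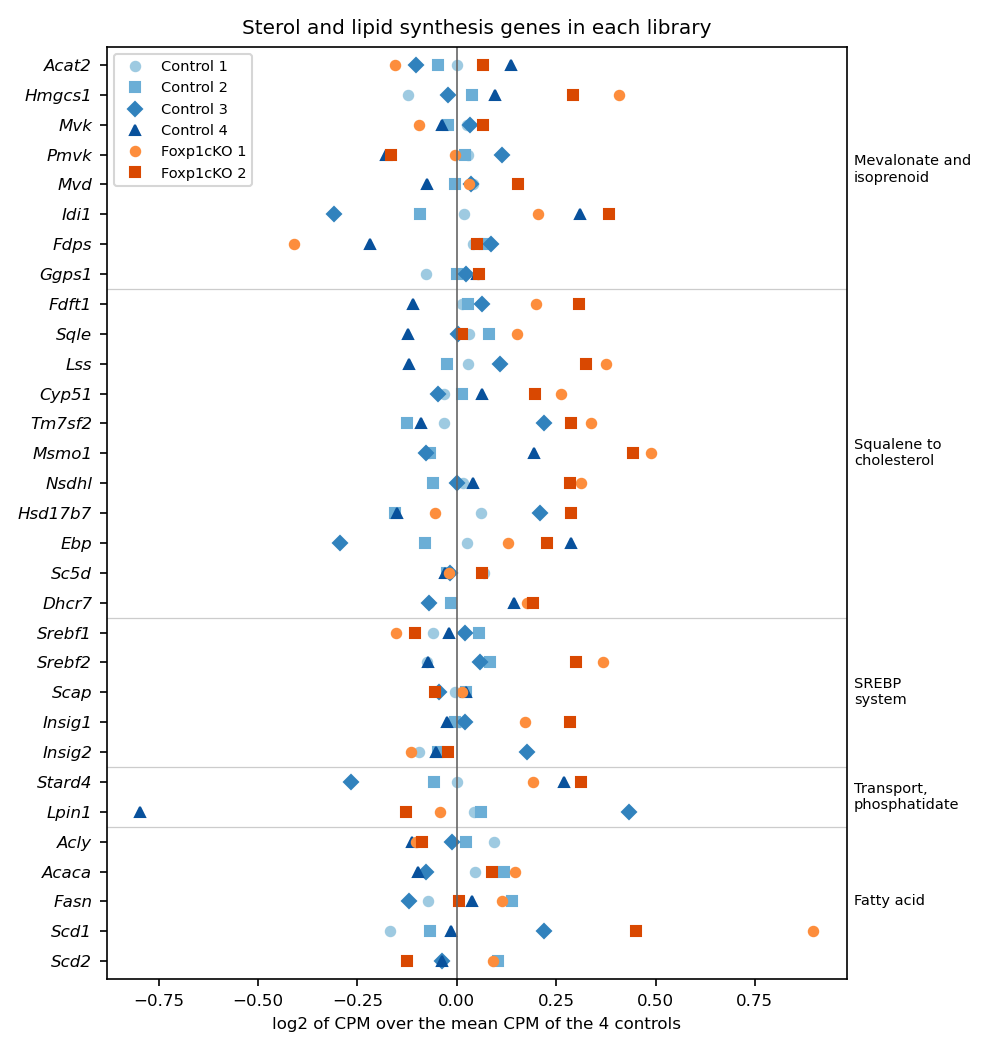
Level of each of the 31 genes in each library, as the log2 of its CPM over the mean CPM of the 4 controls, with genes grouped by role. Blue symbols are controls 1 to 4 and orange symbols Foxp1cKO-labelled libraries 1 and 2; in the squalene to cholesterol block the orange symbols lie right of all blue ones for 7 of 11 genes.

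**Figure D2:**
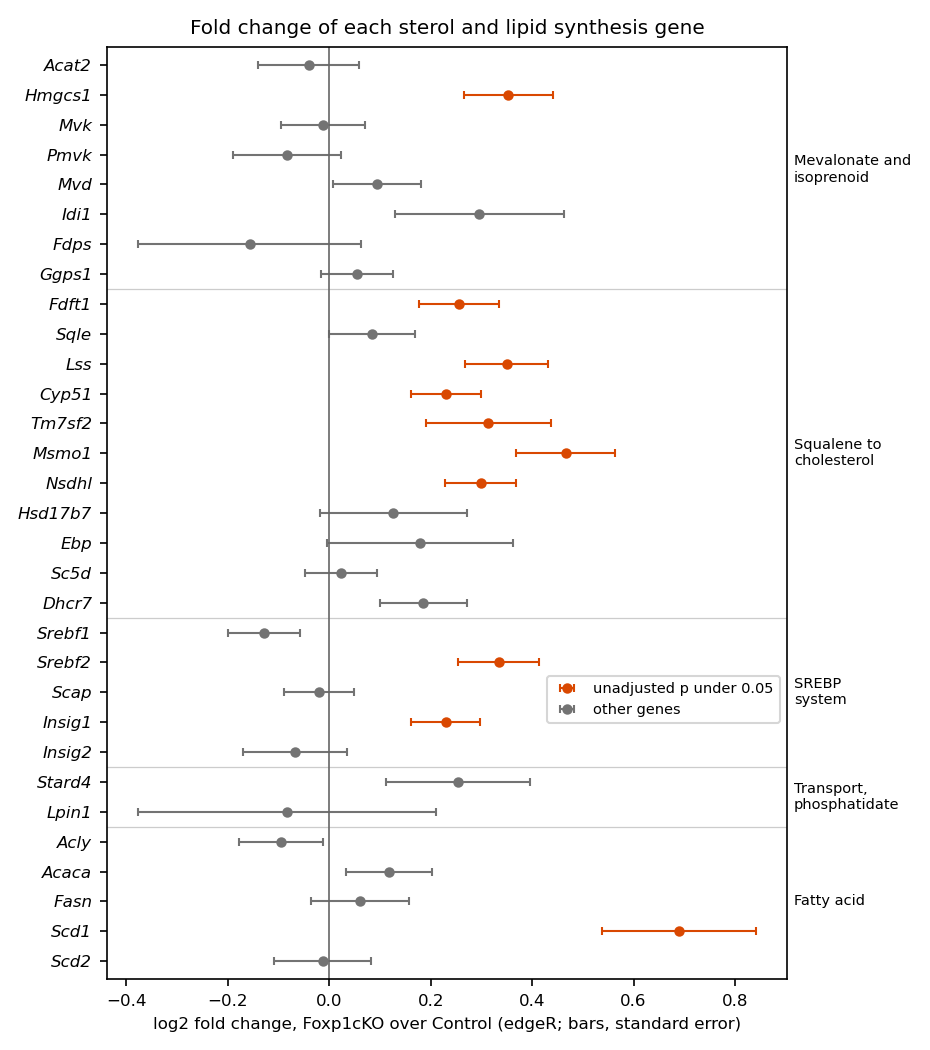
The log2 fold change of each gene, Foxp1cKO-labelled libraries over controls, from edgeR's quasi-likelihood fit, with bars of 1 standard error. The 10 genes at an unadjusted 0.05 are orange and lie between 0.23 and 0.69.

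Of the 8 genes of the mevalonate and isoprenoid steps, 4 were higher and 4 lower, with a median log2 fold change of 0.021. Hmgcs1 (ENSMUSG00000093930.2, mm10 chromosome 13, 119690379 to 119708260), which encodes the cytosolic HMG-CoA synthase, was at 506.1, 566, 543 and 589 CPM in the controls. It reached 732 and 675 CPM in Foxp1cKO-labelled libraries 1 and 2, so that the groups did not overlap. Its log2 fold change was 0.35 (SE 0.0878, edgeR adjusted p = 0.242). Its DESeq2 adjusted p was 0.0173. At 131 CPM per kilobase of exon it was the second most abundant gene of the list on the per-length scale.

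Acat2, whose enzyme forms acetoacetyl-CoA, had 154, 149, 144 and 170 CPM in the controls and 139 and 161 CPM in the Foxp1cKO-labelled libraries. The groups overlapped (log2 fold change -0.041, SE 0.0990), and 28.9% of the 100-base stretches of its annotated transcripts also occur in Acat3, so reads of the pair may be split or lost. The kinase genes Mvk and Pmvk had log2 fold changes of -0.012 and -0.083. Mvd, the decarboxylase gene that follows them, had 0.094, and Ggps1, which makes the geranylgeranyl group for protein prenylation, 0.055. For Ggps1, controls ran from 75.0 to 82.0 CPM and the Foxp1cKO-labelled libraries were at 82.1 and 82.2 CPM, a separation far smaller than its standard error on the log2 scale (0.0705). Idi1, encoding isopentenyl diphosphate isomerase, had a log2 fold change of 0.30 (SE 0.166). Its controls spread from 24.1 CPM in control 3 to 37.0 CPM in control 4, which reached into the range of the Foxp1cKO-labelled libraries, at 34.4 and 38.9 CPM.

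Fdps, encoding farnesyl diphosphate synthase, was the least abundant of the 31 at 0.569 CPM per kilobase, with 94 counts in its lowest library. In GENCODE M21 a further gene, Gm43738, covers 26.7% of its exon bases on the same strand. HTSeq's union mode drops reads that fall in 2 genes, so neither the low level nor the log2 fold change of -0.16 (SE 0.220) of Fdps is a secure measurement. The isomerase gene Idi1 shares 21.9% of its 100-base stretches with other annotated genes, most of them with Gm13502, and reads that match several places may have been lost from it.

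After farnesyl diphosphate, the sterol branch begins with Fdft1, encoding squalene synthase (ENSMUSG00000021273.10, chromosome 14, 63145150 to 63179578). Its controls were at 173, 175, 179.6 and 159 CPM. In Foxp1cKO-labelled libraries 1 and 2 it had 197 and 213 CPM, above every control. The log2 fold change was 0.26 (SE 0.0785, edgeR adjusted p = 0.289). Fdft1 shares 18.3% of its exon bases with Ctsb, annotated on the opposite strand. The strand setting of the counting is not given in the sources used here, and Ctsb itself had a log2 fold change of 0.11.

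Squalene epoxidase, encoded by Sqle, uses oxygen to form the epoxide that is then cyclized. Sqle ran from 153 to 176 CPM in the controls and was at 185 and 168 CPM in the Foxp1cKO-labelled libraries, so the groups overlapped (log2 fold change 0.084, SE 0.0849). Lss, the cyclase gene that turns this epoxide into lanosterol (ENSMUSG00000033105.12, chromosome 10, 76531588 to 76557138), had 109, 105, 115 and 98.5 CPM in the controls. Both Foxp1cKO-labelled libraries, at 139 and 134 CPM, lay above these. Its log2 fold change was 0.35 (SE 0.082, edgeR adjusted p = 0.242, DESeq2 adjusted p = 0.0340).

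The removal of the methyl groups of lanosterol starts with Cyp51, lanosterol demethylase, which also uses oxygen. Cyp51 (ENSMUSG00000001467.5, chromosome 5, 4081145 to 4104746) had 174, 179.9, 173 and 186 CPM in the controls, and 214 and 204 CPM in the Foxp1cKO-labelled libraries. The log2 fold change was 0.23 (SE 0.0693, edgeR adjusted p = 0.289). DESeq2's adjusted p of 0.0503 was just outside its threshold. Tm7sf2, a sterol reductase gene of the following step (ENSMUSG00000024799.15, chromosome 19, 6062821 to 6068373), was less abundant, at 4.37 against 42.7 CPM per kilobase, with 17.4, 16.3, 20.7 and 16.7 CPM in the controls. Its values of 22.5 and 21.7 CPM in the Foxp1cKO-labelled libraries were also above all controls. The log2 fold change of Tm7sf2 was 0.31 (SE 0.124, edgeR adjusted p = 0.364). Vps51 covers 12.1% of its exon bases on the same strand, so part of its reads may not have been counted.

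Msmo1 and Nsdhl, which act together in removing the methyl groups at carbon 4, had the lowest DESeq2 adjusted p-values of the list. Msmo1, the oxygen-using oxidase gene (ENSMUSG00000031604.10, chromosome 8, 64718139 to 64733792), had 87.2, 87.3, 86.6 and 105 CPM in the controls. It had 128 and 124 CPM in the Foxp1cKO-labelled libraries. Its log2 fold change was 0.47 (SE 0.0978, edgeR adjusted p = 0.235, DESeq2 adjusted p = 0.00401). Control 4 stood apart from the other controls, and without it the gene passed edgeR's threshold at a log2 fold change of 0.54 (adjusted p = 0.0373). Nsdhl, the dehydrogenase gene (ENSMUSG00000031349.4, chromosome X, 72918557 to 72958514), had 51.6, 49.1, 51.1 and 52.6 CPM in the controls. The Foxp1cKO-labelled libraries had 63.4 and 62.2 CPM. The spread within each group was thus a small part of the distance between them (log2 fold change 0.30, SE 0.0696, edgeR adjusted p = 0.242, DESeq2 adjusted p = 0.00574).

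The remaining genes of the branch did not separate to this degree. Dhcr7, whose enzyme converts 7-dehydrocholesterol into cholesterol, had 59.9, 62.2, 59.9 and 69.4 CPM in the controls and 71.1 and 71.8 CPM in the Foxp1cKO-labelled libraries. These lay above all controls, but control 4 was near them (log2 fold change 0.19, SE 0.086, edgeR adjusted p = 0.413). Hsd17b7, the ketoreductase gene that works with Nsdhl, Ebp, the sterol isomerase gene, and Sc5d, the oxygen-using desaturase gene, had log2 fold changes of 0.13, 0.18 and 0.023. In all of them the groups overlapped.

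As a sum, the 11 genes of the branch came to 960.1 to 978 CPM in the controls and to 1141 and 1134 CPM in the Foxp1cKO-labelled libraries. The controls thus lay close together, well below both other libraries. Their mean log2 CPM was 5.98 ± 0.0232 (SD, n = 4) among controls and 6.21 ± 0.0173 in the Foxp1cKO-labelled libraries (SD, n = 2). The median difference of the branch from controls 1, 2, 3 and 4 taken singly was 0.25, 0.26, 0.24 and 0.26 on the log2 scale, so no single control set it. Over the whole list the corresponding mean was 6.24 ± 0.0142 and 6.38 ± 0.0109 log2 CPM. With 1 library left out at a time, the branch kept a positive median log2 fold change, from 0.18 to 0.28.

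**Figure D3:**
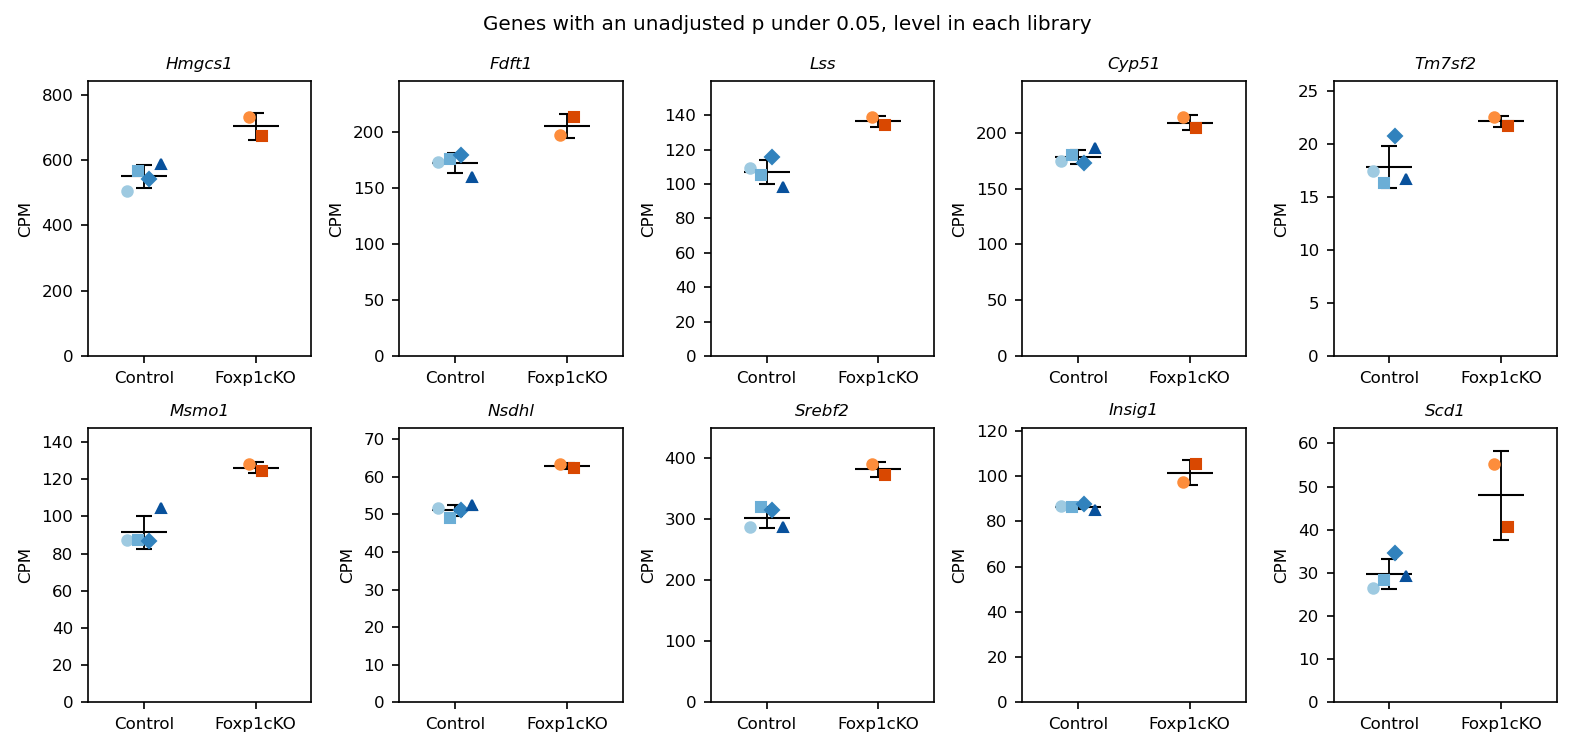
CPM of the 10 genes at an unadjusted 0.05, with controls 1 to 4 and then Foxp1cKO-labelled libraries 1 and 2 from left to right in each panel. Bars show mean and SD, axes start at 0, and in each panel both orange points are above all 4 blue ones. The genes were chosen by p-values from these same libraries, so this separation is not a separate result.

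The 6 genes whose enzymes take up molecular oxygen (Sqle, Cyp51, Msmo1, Sc5d, Scd1 and Scd2) included 3 at an unadjusted 0.05, against 13.0% of all genes, with log2 fold changes from -0.013 for Scd2 to 0.69 for Scd1.

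Of the 5 genes of the SREBP system, Srebf2 and Insig1 were at an unadjusted 0.05, and their partners Srebf1 and Insig2 were not. Srebf2, which encodes the factor that acts mainly on sterol genes (ENSMUSG00000022463.8, chromosome 15, 82147181 to 82205379), was counted at 287, 320.3, 315 and 287 CPM in the controls. In the Foxp1cKO-labelled libraries it had 390.1 and 372 CPM, above all controls. Its log2 fold change was 0.33 (SE 0.080, edgeR adjusted p = 0.242, DESeq2 adjusted p = 0.0273). Srebf1, whose product acts mainly on fatty acid genes, had 72.2, 78.3, 76.4 and 74.3 CPM in the controls and 67.7 and 70.04 CPM in the Foxp1cKO-labelled libraries. It was the only gene of the 31 with both values below all controls (log2 fold change -0.13, SE 0.0714, edgeR adjusted p = 0.482). The ratio of Srebf2 to Srebf1, per kilobase, was 3.15 ± 0.0887 (SD, n = 4) among controls and 4.34 ± 0.250 in the Foxp1cKO-labelled libraries (SD, n = 2).

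Insig1, a retention protein gene that is itself switched on by SREBPs (ENSMUSG00000045294.11, chromosome 5, 28071363 to 28078662), had 86.9, 86.4, 87.9 and 85.1 CPM in the controls. Against this narrow range stood 97.6 and 105 CPM in the Foxp1cKO-labelled libraries (log2 fold change 0.23, SE 0.0683, edgeR adjusted p = 0.287, DESeq2 adjusted p = 0.0776). Insig2, its partner, had a log2 fold change of -0.067 with overlapping groups. The ratio of Insig1 to Insig2 was 2.75 to 3.29 in the controls and 3.74 and 3.79 in the Foxp1cKO-labelled libraries. Scap, which escorts the factors to the Golgi, differed by -0.020, less than its standard error of 0.0683.

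Stard4, a sterol carrier gene, had a log2 fold change of 0.25 (SE 0.142), and Lpin1, a phosphatidate phosphatase gene, of -0.083 (SE 0.294). Both varied more among the controls than between the groups: Stard4 from 60.6 CPM in control 3 to 87.8 CPM in control 4, and Lpin1 from 15.4 CPM in control 4 to 36.2 CPM in control 3.

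The 5 genes of fatty acid synthesis and desaturation had a median log2 fold change of 0.060, with 3 higher and 2 lower. Acly, which supplies cytosolic acetyl-CoA from citrate, had 687, 654, 638 and 595 CPM in the controls and 599 and 606 CPM in the Foxp1cKO-labelled libraries, near the lower end of the control range (log2 fold change -0.096, SE 0.0832). Fasn, the fatty acid synthase gene, likewise overlapped, with 534, 618, 516 and 576 CPM against 607 and 563 CPM. Acaca, encoding acetyl-CoA carboxylase, had a log2 fold change of 0.12 (SE 0.0856), and 23.7% of its 100-base stretches also occur elsewhere, mostly in Gm5182.

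Scd1 and Scd2, the stearoyl-CoA desaturase genes, both lie on chromosome 19. Scd2 was the most abundant of the 31 at 239.9 CPM per kilobase, and had 1282, 1414, 1282 and 1280.5 CPM in the controls. Its values of 1401 and 1205 CPM in the Foxp1cKO-labelled libraries spread wider than the controls, the latter value lying below all of them (log2 fold change -0.013, SE 0.0961). Scd1 (ENSMUSG00000037071.2, chromosome 19, 44394455 to 44407879) had 26.4, 28.4, 34.6 and 29.4 CPM in the controls and 55.3 and 40.6 CPM in the Foxp1cKO-labelled libraries. Both values were above all controls, and the former was much the higher. With a log2 fold change of 0.69 (SE 0.152) it had the largest difference of the list (edgeR adjusted p = 0.242, DESeq2 adjusted p = 0.00976). Without the library labelled Foxp1cKO 1 its log2 fold change was 0.45, and without the library labelled Foxp1cKO 2 it was 0.88. Scd1 amounted to 0.0253 ± 0.00351 of Scd2 per kilobase among controls (SD, n = 4) and to 0.0409 ± 0.00454 in the Foxp1cKO-labelled libraries (SD, n = 2). Scd1 shares 2.58% of its 100-base stretches with other annotated genes.

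**Figure D4:**
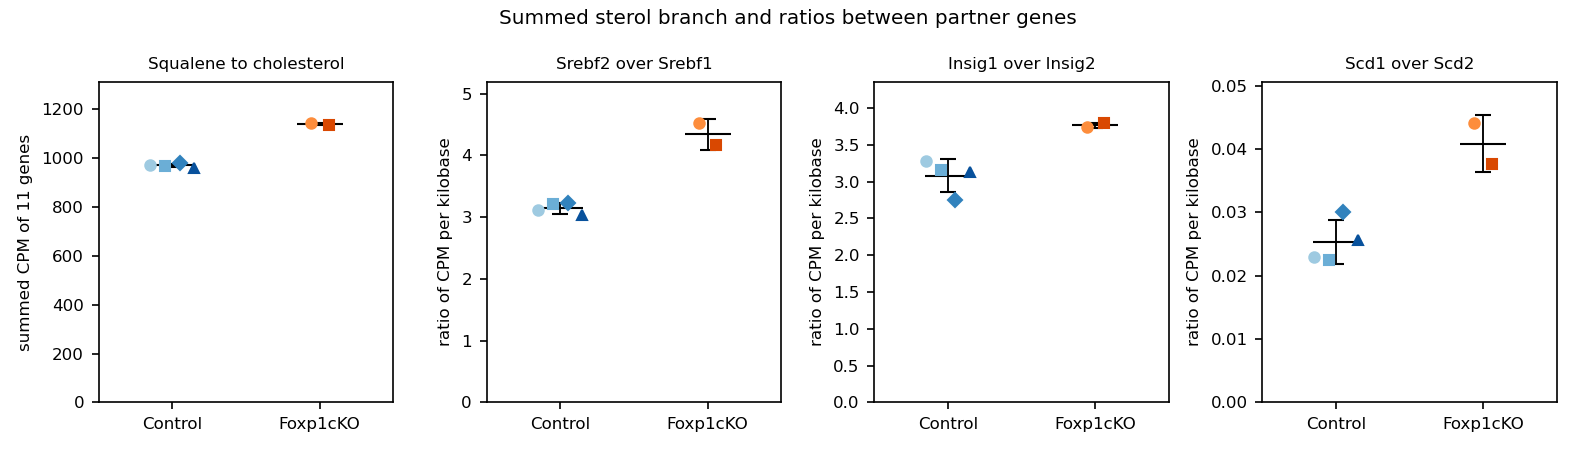
Summed CPM of the 11 genes from squalene to cholesterol, and ratios of CPM per kilobase between Srebf2 and Srebf1, Insig1 and Insig2, and Scd1 and Scd2. Points are single libraries (controls 1 to 4, then Foxp1cKO 1 and 2, from left to right), bars show mean and SD, and in all 4 panels the Foxp1cKO-labelled libraries lie above every control. Srebf2, Insig1, Scd1 and 7 of the 11 genes already did so singly, so these separations are not separate results.

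Promoters of sterol synthesis genes are known to bind SREBPs at sterol response elements next to CCAAT boxes, which bind the factor NF-Y. RefSeq promoter windows (GRCm38.p6, from 250 bases before to 50 after a start) were at hand for 25 of the 31 genes. They were searched on both strands for CCAAT and for TCACNCCAC, a core form of the sterol response element. They were also searched for ACGTG, a form of the core of the hypoxia response element, whose other forms were not searched. CCAAT occurred in 21 of the 25 genes (84.0%), against 42.4% of the genes of the count table with a window. It was found in all 8 of those at an unadjusted 0.05 that have a window, and in 13 of the 17 others. TCACNCCAC occurred in 1 of the 25 genes, Hmgcs1, against 1.48% of the genes of the count table. ACGTG was found in 6 of the 25 (24.0%), against 28.2%, and Insig1 was the only one of the 8 to hold it. A match is a description of the sequence and was not tested as a binding site.

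CCAAT was also found in 13 of the 17 other genes with a window, so it is not particular to the 8 genes shown here. Sequences are given on the gene's strand, where ATTGG is CCAAT read on the other strand. The CCAAT box nearest before each start is printed in capitals with its flanks. It began 45 bases before the start in Hmgcs1 (chr13:119690295-119690322, plus strand), 62 in Lss (chr10:76531532-76531559, plus strand), 29 in Cyp51 (chr5:4104710-4104737, minus strand) and 47 in Tm7sf2 (chr19:6067881-6067908, minus strand). It began 55 bases before the start in Msmo1 (chr8:64733617-64733644, minus strand), 20 in Nsdhl (chrX:72918490-72918517, plus strand), 135 in Srebf2 (chr15:82147123-82147150, plus strand) and 216 in Insig1 (chr5:28071185-28071212, plus strand).
Hmgcs1: ccccgcctctcATTGGctgaaagcggat
Lss: gtgatgctctgATTGGccgagctcgcat
Cyp51: gctgtccgccaCCAATctggtcctgaga
Tm7sf2: tcccagcgctgATTGGctactgtgctgg
Msmo1: agtggggcggaCCAATtacgacaggcga
Nsdhl: agactagcctcATTGGgcaaaatcatgc
Srebf2: ttcgcgcgccgATTGGctaatgcaagcc
Insig1: gccctcctcccATTGGctccggcggcct

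The sterol response core of Hmgcs1, the gene with the second highest level per kilobase, began 137 bases before its start (chr13:119690205-119690232, plus strand) and is shown in capitals.
Hmgcs1 sterol response core: gtcaccgtcTCACCCCACttcccaggtc

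Beyond the 31 genes, 82 further genes of lipid metabolism were listed in 6 groups, of which 79 were in the count table. Their median log2 fold change was -0.037, with 33 higher and 46 lower, and 0 passed edgeR's adjusted threshold. At an unadjusted p-value under 0.05, 8 were higher and 6 lower, 17.7% of the 79 against 13.0% of all genes. DESeq2 called 2 of them, against 3.36% of the genes it tested, both in the group of sterol efflux, storage and LXR. These were Soat1, whose enzyme esterifies cholesterol for storage, and Scarb1, a lipoprotein receptor gene. Soat1 had 38.3, 37.0, 36.7 and 40.7 CPM in the controls and 48.5 and 48.3 CPM in the Foxp1cKO-labelled libraries (log2 fold change 0.34, SE 0.0764), and was named after its values were seen. Scarb1 had 30.8, 26.4, 22.9 and 33.8 CPM against 43.4 and 41.3 CPM (log2 fold change 0.57, SE 0.154). Abca1, the cholesterol exporter gene that LXR activates, stood at the other end of this group with 46.7, 42.0, 52.2 and 28.1 CPM against 25.7 and 29.7 CPM (log2 fold change -0.61, SE 0.235), where control 4 lay within the range of the Foxp1cKO-labelled libraries.

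In the other groups the median log2 fold change was -0.066 for SREBP proteases and sterol-regulated degradation (6 genes), -0.0019 for fatty acid elongation and activation (21 genes), -0.12 for fatty acid oxidation (14 genes), -0.037 for lipid droplets and glycerolipids (13 genes), and -0.096 for prenylation, dolichol and ubiquinone (12 genes). Mbtps2, a protease gene that releases SREBPs, differed by 0.12, and Rnf145, a sterol-responsive ubiquitin ligase gene, by -0.14. Cpt1a, which admits fatty acids to mitochondria for oxidation, had 41.6, 40.2, 23.7 and 38.1 CPM in the controls and 20.7 and 22.1 CPM in the Foxp1cKO-labelled libraries (log2 fold change -0.75, SE 0.227), with control 3 near the latter. Ppargc1a, a coactivator gene of mitochondrial metabolism, was at the upper end of the oxidation group with 0.46. Icmt, which methylates prenylated proteins, had the lowest value of its group at -0.24, and Pdss2, of ubiquinone synthesis, the highest at 0.29. Pnpla2, the lipid droplet lipase gene, differed by -0.40. Lpin3, Thrsp and Mlxipl, which were the extreme genes of their groups, had between 0.0322 and 1.57 CPM in every library, and the first 2 were at or below the level of 3 counts, 0.0381 to 0.0596 CPM, in 1 library each.

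Markers of other cells in the dissection did not all stay level. The 6 pericyte markers summed to 194 to 228 CPM in the controls and to 288 and 283 CPM in the Foxp1cKO-labelled libraries. All 6 were higher, against 49.3% of all genes. Of them, 4 were at an unadjusted p-value under 0.05, against 13.0% of all genes in either direction and 6.53% higher. The 5 red cell markers in the table, of 6 listed, summed to 48.7, 31.8, 33.6 and 125 CPM in controls 1 to 4 and to 119 and 117 CPM in the Foxp1cKO-labelled libraries, so that control 4 resembled the latter. Sums of 8 endothelial markers ran from 128 to 194 CPM in the controls and were 156 and 189 CPM in the Foxp1cKO-labelled libraries. The 7 microglia markers summed to 20.9 to 33.4 CPM and to 34.9 and 32.2 CPM, and the 6 mesenchyme markers to 92.7 to 562 CPM and to 149.9 and 340 CPM. The 7 ventral or interneuron markers were at 231 to 811 CPM in the controls, highest in control 3, and at 514 and 383 CPM. The 5 intermediate progenitor markers summed to 663 to 894 CPM in the controls and to 625 and 717 CPM. All 5 were lower, with a median log2 fold change of -0.21, and 1 was at an unadjusted p-value under 0.05, against 13.0% of all genes. No marker had 0 counts in any library. Both the pericyte sum and the sum of the genes from squalene to cholesterol were thus higher in the Foxp1cKO-labelled libraries than in all controls. Among the controls, control 4 had the highest pericyte sum (228 CPM) and the lowest branch sum (960.1 CPM). Control 3 had the lowest pericyte sum (194 CPM) and the highest branch sum (978 CPM). With mean log2 CPM in place of sums, control 4 had the lowest pericyte value (3.96) and the highest branch value (5.990). The order among the controls thus depended on the measure. The part of the pericyte and red cell sums in the difference of the sterol branch was not tested.

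**Figure D5:**
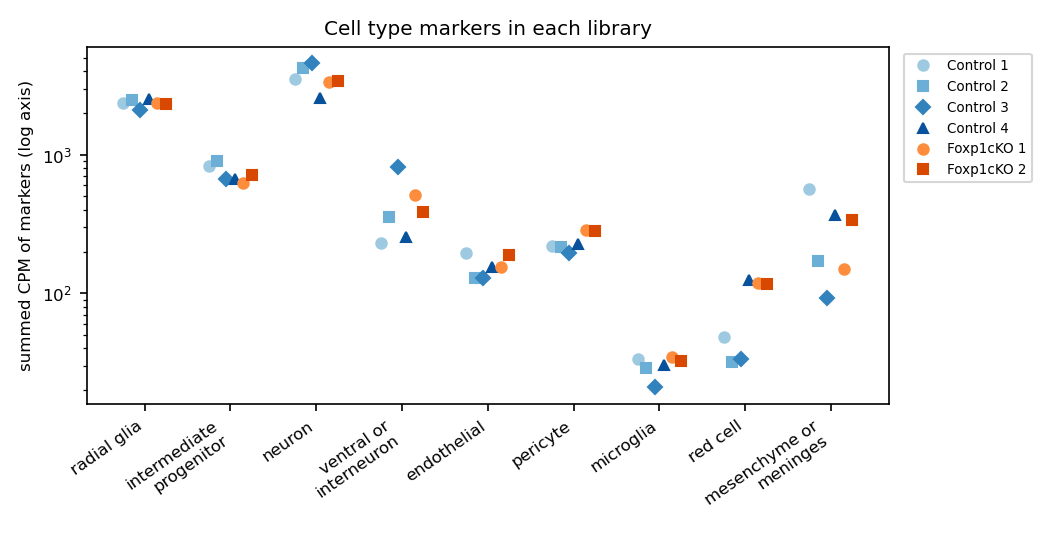
Summed CPM, on a log axis, of cell type markers in each library. Radial glia, neuron and endothelial sums overlap between the groups, whereas the pericyte sum of both Foxp1cKO-labelled libraries lies above all controls and the red cell sum is high in both of them and in control 4.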

How the data were processed

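Libraries were made with a TruSeq Stranded kit. By the study's methods, STAR aligned the paired-end reads to mm10, HTSeq 0.9.1 assigned them to genes (union mode), and weakly covered genes were dropped. The authors deposited these counts unscaled, as integers for 17068 genes, and also deposited VST values, on a log2-like scale, from DESeq2 1.30.1.

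Counts were tested in R 4.3.3 with edgeR 4.0.16's quasi-likelihood test, TMM normalization and a model of group alone. The litter term of the authors' model was not used here, and its part in the differences was not tested. DESeq2 1.42.0, limma 3.58.1 and other scalings and filters were alternatives, and the fits were tested on simulated data. Symbols, positions and exon lengths came from GENCODE M21 (17047 of 17068 identifiers found, 15605 with their version number). Members and lists were chosen with earlier results of these data known. Genes with values in every library had an unadjusted p-value under 0.05, did not overlap between groups, or were among the 5 most abundant per length. From each further list the highest and lowest genes with a mean of at least 10 counts were named. The list does not hold every gene of these pathways. A floor of 3 counts covers counting error only.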

Additional observations from a re-analysis of the deposited data

Results flagged for a closer look

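Among the 4 controls, 1 value stood apart from the other 3 by Dixon's test in 5 of the 31 genes. These were Fdps, lowest in control 4 at 2.13 CPM, Msmo1, highest in control 4 at 105 CPM, Sc5d, highest in control 1 at 85.6 CPM, Insig2, highest in control 3 at 35.8 CPM, and Scd2, highest in control 2 at 1414 CPM. Chance flags about 1 in 20 groups.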

How the results depend on the processing

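The 10 genes at an unadjusted 0.05 kept a positive log2 fold change in all 13 alternatives, the smallest being 0.16. Genes called over all 17068 numbered 26 in edgeR's fit, 507 with DESeq2, 0 with the replicate block, and 2 to 96 with 1 library left out. Of the 31, 0 were called in edgeR's fit, 6 with DESeq2, and 0 to 1 with 1 library left out (Msmo1 without control 4). At an unadjusted 0.05, leaving out 1 library left 7 to 12 of the 31, while the share of all genes ran from 5.51% to 19.1%. Of the other lipid genes 0 were called, 2 with DESeq2 and 0 to 1 with 1 library left out (Cpt1a without control 3). The median log2 fold change of the 31 was 0.12, became 0.13 with total counts and 0.093 with the replicate block, and ran from 0.080 to 0.15 with 1 library left out, lowest without control 4.

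Replicate numbers 1 and 2 occur in both groups, and numbers 3 and 4 only among the controls. With replicate number as a block, controls 3 and 4 therefore did not inform the group difference, and few degrees of freedom were left. Counts of genes called with this block are thus not comparable with those of the other fits. For the control and the Foxp1cKO-labelled library sharing a number, departures from the group mean correlated at -0.198 and 0.0157. In a group of 2 libraries these departures mirror each other exactly, so the correlations are not separate checks. They cannot tell whether libraries sharing a number came from the same litter, and this was not tested. With the numbers crossed in the replicate block, chosen after seeing the data, 1301 genes passed, 6 of the 31 and 6 of the other lipid genes, and the median was 0.093.

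Signs turned for 8 genes, each with a log2 fold change smaller than its SE. Total counts gave 0.0044 for Mvk and 0.0035 for Scd2. The replicate block gave 0.0024 for Insig2, and 0.0028 with the numbers crossed. With 1 library left out, Acat2 ran from -0.17 to 0.065, Mvk from -0.11 to 0.066, Fdps from -0.43 to 0.051, Hsd17b7 from -0.073 to 0.29, Sc5d from -0.036 to 0.063, Lpin1 from -0.27 to 0.081, and Scd2 from -0.13 to 0.074.

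Without the library labelled Foxp1cKO 1 or 2, a single library stands for that group and is assumed to vary as the controls do.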

Other observations

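Some of the genes that varied most among the controls did so in a shared order. Idi1, Stard4 and Ebp were each lowest in control 3, at 24.1, 60.6 and 6.68 CPM, and highest in control 4, at 37.0, 87.8 and 9.98 CPM. Lpin1 had the opposite order, 36.2 CPM in control 3 and 15.4 CPM in control 4, as did the summed neuron markers, 4569 and 2578 CPM. This was seen in 4 libraries and was not tested.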
